A study of Mus musculus with 30 samples.

Results

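Metformin was added on its own to serum-deprived C2C12 myotubes, and the 6 libraries of these cells were compared with 6 libraries of serum-deprived cells without it. C2C12 is a wild-type mouse myoblast line whose cells fuse into multinucleated myotubes when serum is lowered. In every group the cells had been differentiated for 4 days in low-glucose medium with 2% horse serum and were then kept for another 4 days in the group's own medium, which made 8 days in all. The serum-deprived group (SD) received no serum, the metformin group (MET) received no serum and 100 nM metformin, and the 12 libraries of these groups were chosen from 30 by their labels. The other 18 libraries came from cells kept in 2% horse serum (2% HS), from serum-deprived cells given 500 nM leucine (LEU), and from serum-deprived cells given both agents at these doses (MET+LEU). The labels do not say that the 6 libraries of a group came from separate cultures, so the p-values below measure the spread between these libraries. One immortalised line in culture stands for muscle here, without blood supply, innervation or other tissues.

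Metformin is a biguanide used against type 2 diabetes. At high concentrations it slows complex I of the mitochondrial respiratory chain, which raises AMP and activates the AMP-activated protein kinase (AMPK), a sensor of low energy. Mitochondrial inhibitors and lack of amino acids also act on the integrated stress response, in which kinases of the initiation factor eIF2 slow translation while the transcription factor ATF4 is made and induces genes of amino acid synthesis and uptake. Genes of these and other pathways were grouped into 32 lists, which were drawn up with earlier results of these data known. Each list is described by counts and by its median beside all genes tested.

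The SD libraries held 12813903 to 18275801 counts (median 15159546) and the MET libraries 14613457 to 16756628, ranges that overlap. Myotube markers were abundant in all 12 libraries, with Myog, a myogenic transcription factor, at 1003 to 1156 CPM in SD and 1036 to 1075 CPM in MET (CPM are counts scaled to a common library size), and the summed CPM of the 8 myotube markers was 8660 to 10179 in SD and 8903 to 9333 in MET. The 3 myoblast markers summed to 394 to 489 CPM in SD and 392 to 452 CPM in MET, so these transcripts were at similar levels in both groups. Of them, Myod1 was at 239 to 311 CPM in SD and 231 to 283 CPM in MET. The sum is not a measure of the number of unfused cells. Of the 4 fibroblast markers Col1a1 was at 692 to 860 CPM, Dcn at 20.6 to 33.8 CPM and Pdgfra at 14.1 to 20.5 CPM over these libraries, and Thy1 was at most 0.134 CPM. The defining markers Adgre1 of macrophages, Kdr of endothelium, Adipoq of adipocytes and Epcam of epithelium had 0 counts in all of them. In bulk RNA a smaller number of cells of a kind and less RNA per cell cannot be told apart. One library outside the comparison stood apart, MET+LEU replicate 6, in which mitochondrial rRNA took 7.64% and nuclear rRNA 5.85% of the counts. It enters the model that estimates the spread for all groups, so values are also given without it.

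Few genes differed between MET and SD, and all of them by small amounts. Of 15907 genes tested, 25 (0.157%) passed the threshold of an adjusted p under 0.05 in edgeR's quasi-likelihood test, 12 upregulated (0.0754%) and 13 downregulated (0.0817%). Their absolute log2 fold changes ranged from 0.16 to 0.53 with a median of 0.23, and 0 of them reached 1.5-fold. At an unadjusted p under 0.05 there were 1597 genes (10.0%), 749 positive (4.71%) and 848 negative (5.33%). The MET libraries lay wholly above or below the SD libraries for 16 of the 25 genes, compared with 114 of all genes tested (0.717%). Among the 14086 genes with a mean of at least 1 CPM, the 95% interval of the fold change stayed within 1.5-fold for 12695 (90.1%) and within 1.25-fold for 9747 (69.2%), so for most expressed genes a larger change lay outside the interval. Its interval lay wholly beyond 1.5-fold for 1 gene, Rn7s1, a noncoding RNA gene, at a log2 fold change of 1.5997 ± 0.38 (SE, adjusted p = 0.0837). Rn7s1 was named after its values were seen, and its highest MET library reached 745 CPM against a MET median of 137 CPM, and the SD libraries lay between 84.2 and 141 CPM.

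**Figure D1:**
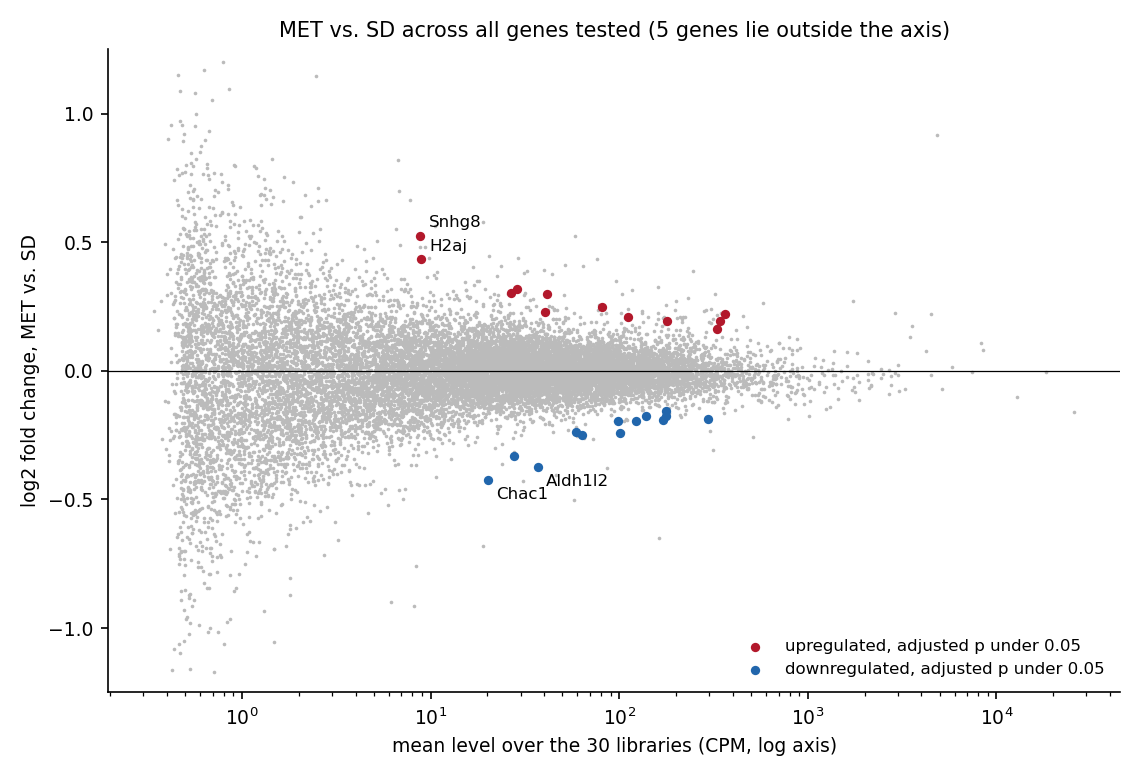
Log2 fold change of MET against SD for each gene tested, plotted against its mean CPM over the 30 libraries on a log axis, with the 25 genes past the threshold in colour. The coloured points lie between -0.43 and 0.53, inside the spread that genes of low level show; 5 genes lie outside the axis.

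Of the downregulated genes 3 belong to the integrated stress response list, and Chac1 and Aldh1l2 fell furthest of all 13. Chac1 (chr2:119351229-119354381, GRCm38), which degrades glutathione and is a known ATF4 target, was present at 16.8, 19.3 and 24.2 CPM (lowest, median and highest library) in SD and at 14.7, 15.1 and 15.6 CPM in MET. All 6 MET libraries lay below all SD libraries, and they were much closer to each other than the SD libraries were. The log2 fold change was -0.43 ± 0.09 (SE; adjusted p = 0.0350, edgeR). Aldh1l2, a mitochondrial formyltetrahydrofolate dehydrogenase, stood at 32.0, 35.2 and 45.0 CPM in SD and 25.7, 27.8 and 30.7 CPM in MET, again without overlap (-0.37 ± 0.08, adjusted p = 0.0192). The SD library with the highest Aldh1l2 and the highest Chac1 was replicate 2 in both cases. Slc7a5, the light chain of the transporter that imports leucine and other large neutral amino acids, was at 130 to 153 CPM in SD (median 136) and 117 to 132 CPM in MET (median 120.04), with 5 of 6 MET libraries below all SD libraries (-0.18 ± 0.04, adjusted p = 0.0407). Without SD replicate 2 the adjusted p of Chac1 rose to 0.158, of Aldh1l2 to 0.0870 and of Slc7a5 to 0.215. Exons of Aldh1l2 overlap those of D10Wsu102e on the opposite strand, whose log2 fold change was -0.13 (adjusted p = 0.264), and the strand setting of the counting is not given in the sources used here.

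Many ATF4 targets carry an amino acid response element in the promoter, a composite C/EBP and ATF site that was searched for as TGATGNAA on both strands (TTNCATCA on the other). The windows searched ran from 250 bases before to 50 bases after each RefSeq start site (GRCm38.p6), and 16 of the 25 genes had a window, of which Chac1 and Sap18 held the motif. Of the 32 integrated stress response genes with a window, 10 (31.2%) held the motif. The share was 2.62% (278 genes) among all genes tested that had a window, and 4.51% among all 27025 genes with one. The list was made of known genes of this response, ATF4 targets among them, so its higher share is no test of the motif. The stretches upstream of the start site of 9 of the 10 are shown, with the motif in capitals and on the strand of the gene. These genes were picked because they hold the motif, so that they share it follows from the choice.
Chac1, chr2:119351024-119351081 (+): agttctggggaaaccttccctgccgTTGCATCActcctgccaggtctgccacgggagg
Fgf21, chr7:45615597-45615654 (-): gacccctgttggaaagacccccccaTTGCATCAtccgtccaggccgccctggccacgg
Pycr1, chr11:120643819-120643876 (-): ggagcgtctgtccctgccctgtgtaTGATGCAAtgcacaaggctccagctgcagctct
Herpud1, chr8:94386292-94386349 (+): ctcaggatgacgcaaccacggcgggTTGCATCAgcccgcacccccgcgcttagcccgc
Vldlr, chr19:27216795-27216852 (+): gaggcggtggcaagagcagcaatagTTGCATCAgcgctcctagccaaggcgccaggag
Asns, chr6:7693210-7693257 (-): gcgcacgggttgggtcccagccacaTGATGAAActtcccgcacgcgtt
Atf3, chr1:191183411-191183468 (-): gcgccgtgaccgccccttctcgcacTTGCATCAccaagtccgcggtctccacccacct
Slc7a11, chr3:50443628-50443704 (-): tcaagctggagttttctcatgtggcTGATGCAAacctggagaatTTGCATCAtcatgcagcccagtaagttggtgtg
Nupr1, chr7:126625548-126625605 (-): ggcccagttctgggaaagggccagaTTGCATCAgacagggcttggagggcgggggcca

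The motif of Chac1 ended 186 bases before its start site, that of Asns 16 bases before. Of the 10 members with the motif, 6 had an unadjusted p under 0.05 and all 6 of these were negative, with a median log2 fold change of the 10 of -0.17. Of the 22 members whose window lacked it, 8 had such a p, 6 of them negative, and the median was -0.06. Of the 5 members with no window, among them Aldh1l2 and Slc7a5, 3 had such a p, all negative, and the median was -0.21. The values of the members with the motif were not all low, from -0.76 in Trib3, a pseudokinase, to 0.16 in Atf3. A match says only that these letters are in the window.

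In the whole integrated stress response list, 37 of 38 members were tested and 3 passed the threshold, all downregulated (Chac1, Aldh1l2 and Slc7a5), with 15 negative and 2 positive members at an unadjusted p under 0.05 (45.9%, beside 10.0% of all genes). The median log2 fold change was -0.10, beside -0.005 for all genes tested. The mean log2 CPM of the list lay between -0.15 and -0.10 in the MET libraries and between -0.10 and 0.12 in the SD libraries, relative to the SD mean, without overlap, though the lowest SD library (replicate 5) was close to the highest MET library. The transporters and enzymes closest to the threshold were Slc7a1, the importer of cationic amino acids (log2 fold change -0.15, adjusted p = 0.0524), and Cth, which makes cysteine from cystathionine (-0.87, adjusted p = 0.0837, at a mean of 1.80 CPM over all libraries). The serine pathway gave Phgdh at -0.20 and Shmt2 at -0.13 (adjusted p = 0.230 and 0.273). The mRNA of Atf4 itself, which is regulated largely at translation, averaged 279 CPM in SD and 281 CPM in MET (0.01 ± 0.03, adjusted p = 0.955). Cebpb, a C/EBP transcription factor, was the highest member at 0.41 (adjusted p = 0.428). Without SD replicate 2 the list had 0 calls, 13 negative and 1 positive member at the unadjusted threshold, and a median of -0.08. It also had 0 calls without MET replicate 3 and without MET replicate 4, with a median of -0.10 in both fits.

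The other downregulated genes had several roles in muscle cells. Fgf11, an intracellular homologue of the fibroblast growth factors, on chr11:69796068-69801857, had the lowest p of all genes, with 58.7, 64.1 and 66.5 CPM in SD and 50.9, 53.4 and 55.4 CPM in MET (log2 fold change -0.25 ± 0.04, adjusted p = 0.00556, edgeR). No Fgf11 value of MET reached the lowest of SD. Gys1, the muscle glycogen synthase, was at 157, 163 and 172 CPM in SD and 135, 143 and 149.7 CPM in MET, also without overlap (-0.19 ± 0.04, adjusted p = 0.0137). Musk, the receptor kinase that organises the neuromuscular junction, was at 169 to 181 CPM in SD and 154 to 164 CPM in MET (-0.16 ± 0.03, adjusted p = 0.0192). Its groups did not overlap, and its change of 10.3% was the smallest of the 25. Kcnn3, a calcium-activated potassium channel, was at 169.8 to 198 CPM in SD (median 174) and 149.8 to 162 CPM in MET (median 158), without overlap (-0.17 ± 0.04, adjusted p = 0.0371). SD replicate 5, at 198 CPM, lay well above the other SD libraries for this gene.

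Adgrg1, an adhesion G protein-coupled receptor, was at 25.8, 29.4 and 31.3 CPM in SD and 21.9, 22.7 and 24.7 CPM in MET (-0.33 ± 0.06, adjusted p = 0.0137). Bhlhe40, a transcriptional repressor that belongs to the circadian clock, was at 279, 300.2 and 311 CPM in SD and 251, 260.0 and 271 CPM in MET (-0.19 ± 0.04, adjusted p = 0.0159). Both genes separated the groups fully. Rubcn, which restrains autophagy and endocytic trafficking, was at 98.6 to 111 CPM in SD and 84.0 to 93.7 CPM in MET, without overlap (-0.20 ± 0.04, adjusted p = 0.0159). Porcn, which attaches the lipid that Wnt proteins need for secretion, was at 50.5 to 62.7 CPM in SD and 45.1 to 51.2 CPM in MET (-0.24 ± 0.05, adjusted p = 0.0228). Dot1l, a histone methyltransferase, was at 118 to 136 CPM in SD and 104 to 125 CPM in MET (-0.20 ± 0.04, adjusted p = 0.0192). For both of these 5 of 6 MET libraries lay below all SD libraries, and for Dot1l the exception was MET replicate 6. Gm49759, a transcript of unclear coding status on chromosome 9, was at 90.3 to 114 CPM in SD and 81.2 to 92.8 CPM in MET (-0.24 ± 0.05, adjusted p = 0.0145). It spans chr9:59672814-59676700 (GRCm38) and its exon overlaps Pkm, the pyruvate kinase gene, on the same strand. Pkm held 266169 counts in the 12 libraries against 17442 of Gm49759, with a log2 fold change of -0.11 (adjusted p = 0.233), and the reads of both cannot be told apart there.

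Among the 12 upregulated genes were components of mRNA processing, translation and protein folding, and Ncbp2 and Pdcd4 had the lowest p of them. Ncbp2 (chr16:31948513-31961781), the small subunit of the nuclear cap-binding complex, was at 23.01, 24.4 and 27.03 CPM in SD and 29.7, 30.2 and 31.3 CPM in MET (0.30 ± 0.05, adjusted p = 0.00823, edgeR). Pdcd4 (chr19:53892231-53929860), which inhibits the initiation factor eIF4A and so restrains translation, was at 34.1, 35.6 and 40.0 CPM in SD and 42.9, 44.4 and 47.2 CPM in MET (0.30 ± 0.05, adjusted p = 0.00823). In both genes every MET library lay above every SD library. Among ribosomal proteins, Rpl17 was at 288, 300.5 and 311 CPM in SD and 319.5, 338 and 349 CPM in MET, without overlap (0.16 ± 0.04, adjusted p = 0.0382). Rpl23a was at 294 to 363 CPM in SD (median 323) and 333 to 415 CPM in MET (median 377), with 4 of 6 MET libraries above all SD libraries (0.22 ± 0.05, adjusted p = 0.0416). Ribosomal protein genes have many near-identical pseudogenes, and how the counting treated shared reads is not given, so these 2 values are less certain.

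Pfdn5, a subunit of the prefoldin chaperone, was at 63.2 to 80.3 CPM in SD and 79.9 to 86.9 CPM in MET (0.25 ± 0.05, adjusted p = 0.0228). Dnaja1, a J-domain co-chaperone, was at 95.2 to 110.3 CPM in SD and 113 to 124 CPM in MET (0.21 ± 0.05, adjusted p = 0.0397). The chaperone Dnaja1 separated the groups fully and Pfdn5 in 5 of 6 MET libraries. Sap18, a part of histone deacetylase and splicing complexes, was at 36.0 to 38.8 CPM in SD and 38.8 to 48.2 CPM in MET (0.23 ± 0.05, adjusted p = 0.0283). Snhg8, a host gene of a small nucleolar RNA, had the largest change of the 25, from 5.85, 7.27 and 8.49 CPM in SD to 9.52, 10.1 and 11.6 CPM in MET (0.53 ± 0.11, adjusted p = 0.0332). H2aj, a replication-independent histone H2A variant, followed with 7.16, 7.70 and 8.30 CPM in SD and 9.26, 10.1 and 11.7 CPM in MET (0.43 ± 0.09, adjusted p = 0.0192). Neither gene showed overlap, but both are low, with 76 to 175 counts on Snhg8 and 93 to 196 on H2aj in these 12 libraries.

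Ptgfr, the receptor for prostaglandin F, was at 21.9, 26.4 and 29.5 CPM in SD and 29.8, 32.0 and 35.1 CPM in MET (0.32 ± 0.07, adjusted p = 0.0397), a narrow separation. Egr1, an immediate early transcription factor, was at 162, 169 and 182 CPM in SD and 178, 199.9 and 209 CPM in MET (0.20 ± 0.04, adjusted p = 0.0192). Sox11, a transcription factor of embryonic and immature cells, was at 294 to 368 CPM in SD and 355 to 403 CPM in MET (0.19 ± 0.04, adjusted p = 0.0340). In Egr1 and Sox11 5 of 6 MET libraries lay above all SD libraries. Exons of 10 of the 25 genes overlap those of a gene on the opposite strand. Ncbp2 is one of these: its partner Senp5 held 18555 counts in the 12 libraries against 5159, with a log2 fold change of -0.02.

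**Figure D2:**
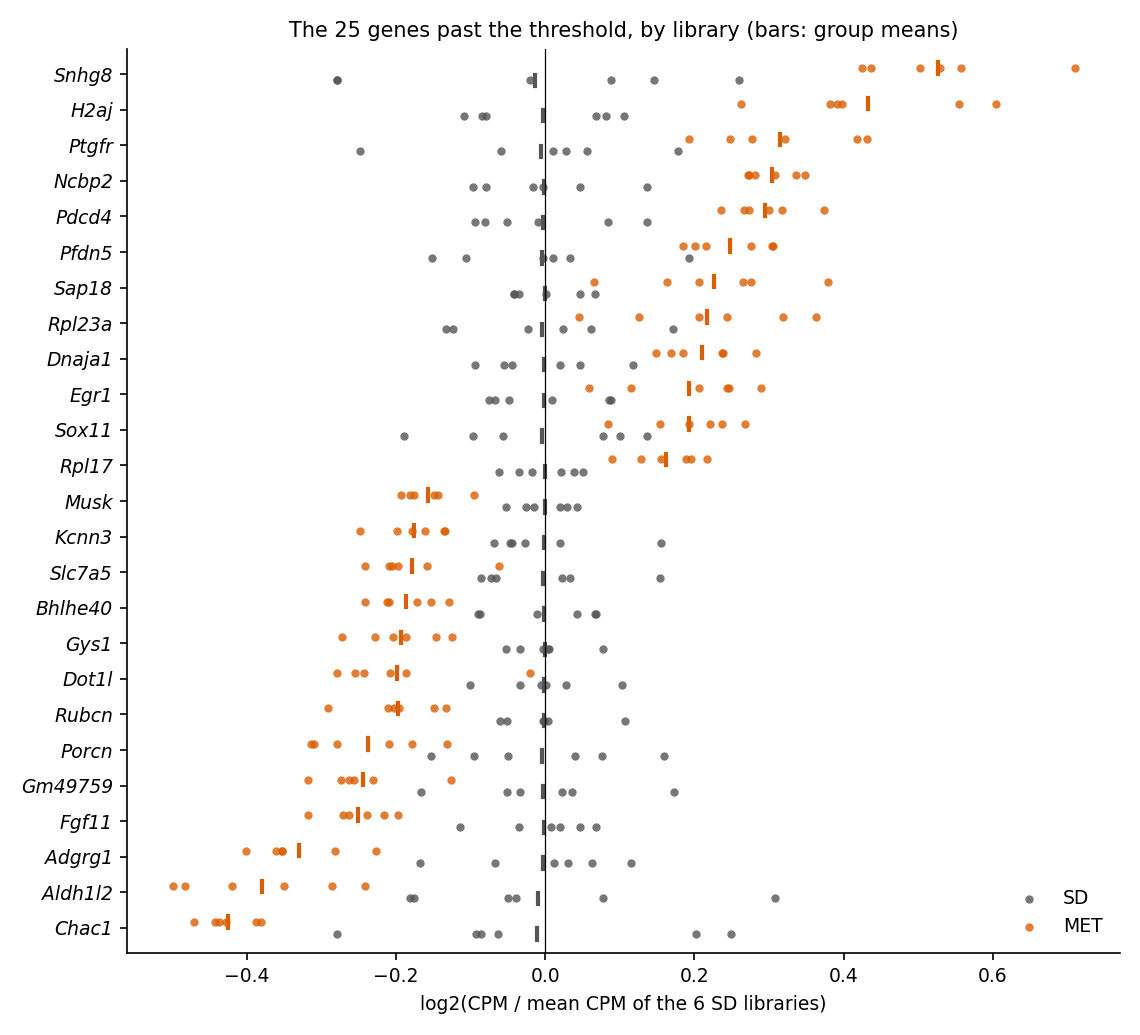
Level of each of the 25 genes past the threshold in the 6 SD and 6 MET libraries, as the log2 of the CPM over the SD mean, with vertical bars for the group means. The MET points of 16 genes do not overlap the SD points, and the group mean lies furthest right for Snhg8 and furthest left for Chac1.

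The upregulated genes had shorter and less GC-rich transcripts than the downregulated ones. The median transcript length was 2239 bases for the 12 upregulated and 3616 bases for the 13 downregulated genes, beside 3038 bases for all genes tested, and the median GC content was 46.1% and 54.4%, beside 49.0%. Lengths overlapped widely, from 588 to 8311 bases among upregulated and from 1637 to 8314 bases among downregulated genes. With a GC offset in the edgeR fit 23 of the 25 genes remained past the threshold and the total was 50. Of the 25 genes 23 are protein-coding.

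Transcripts of AMPK and its upstream kinases had a median change near 0 and 0 calls. The list held 13 members, all tested, with a median log2 fold change of -0.004, and the only member at an unadjusted p under 0.05 was Prkag3, the muscle-specific gamma subunit, at 91.1 to 115 CPM in SD and 81.8 to 94.4 CPM in MET (-0.19, adjusted p = 0.0640). Without MET+LEU replicate 6 in the model, and with DESeq2's Wald test, 1 member was downregulated. The catalytic subunits were at 112 and 109 CPM for Prkaa1 (-0.04) and 57.8 and 57.5 CPM for Prkaa2 (-0.004; SD and MET means), and the lowest and highest 95% bounds over the list were -0.28 and 0.37. These are transcript levels and carry no information on AMPK phosphorylation. Of 10 genes whose products carry metformin, 3 had enough counts to be tested, Slc22a4 (2.20 CPM in SD), Slc22a5 (12.3 CPM) and Slc19a2 (14.2 CPM), with log2 fold changes of 0.11, 0.08 and -0.06 and adjusted p-values of 0.904, 0.855 and 0.847.

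Nuclear genes of complex I were mostly positive, with 0 calls, and 2 were upregulated without MET+LEU replicate 6 in the model. All 37 complex I genes were tested, 29 of them positive, 6 at an unadjusted p under 0.05 (16.2%), with a median of 0.06. The highest was Ndufa13, at 33.6 to 50.8 CPM in SD and 47.8 to 71.8 CPM in MET (0.52 ± 0.12, adjusted p = 0.0621). Complexes II to V gave 25 positive and 18 negative of 43, 6 and 0 at that threshold, and a median of 0.009, which was -0.003 without SD replicate 4 and -0.02 without SD replicate 5. In the model without MET+LEU replicate 6, 2 of these genes were upregulated. The list was led by the ATP synthase subunits Atp5j (0.22, adjusted p = 0.106) and Atp5j2 (0.38, adjusted p = 0.106). The 13 mRNAs encoded by mitochondrial DNA had a median of 0.006 and 0 members at an unadjusted p under 0.05, and their mean level ran from -0.40 to 0.44 in SD and from -0.49 to 0.39 in MET, relative to the SD mean. Their lowest p belonged to mt-Nd6 (0.24, adjusted p = 0.580) and mt-Nd4l (-0.91, adjusted p = 0.541), both subunits of complex I. As a share of counts, mitochondrial mRNA took 2.61% ± 0.297 in SD and 2.69% ± 0.266 in MET (mean ± standard deviation, n = 6; exact two-sided permutation test, p = 0.617). Mitochondrial rRNA took 0.325% ± 0.0289 in SD and 0.528% ± 0.180 in MET (exact permutation test, p = 0.0238, adjusted over 5 shares 0.119), with MET libraries from 0.244% to 0.705%. The part of this share in the gene values was not tested.

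Glycolysis genes were mostly negative. Of 25 tested, 23 were negative, 11 negative and 1 positive at an unadjusted p under 0.05 (48.0%), 0 passed the threshold, and the median was -0.11. Downregulated genes numbered 2 without MET+LEU replicate 6 in the model and 3 with DESeq2's Wald test. Eno1, an enolase, was nearest, at 743, 765 and 863 CPM in SD and 654, 685 and 740.1 CPM in MET (-0.19 ± 0.04, adjusted p = 0.0574), with no overlap between groups. Slc2a1, the basal glucose transporter, was at 70.1 to 110.3 CPM in SD and 61.8 to 75.6 CPM in MET (-0.38 ± 0.10, adjusted p = 0.118). Txnip, which restrains glucose uptake, was the 1 positive member at an unadjusted p under 0.05 (0.22, adjusted p = 0.367). The mean level of the list overlapped between the groups, from -0.13 to 0.10 in SD and from -0.16 to -0.03 in MET, relative to the SD mean. In cholesterol and fatty acid synthesis, 26 of 31 genes were negative, 8 of them at an unadjusted p under 0.05 and 0 positive (25.8%), with a median of -0.06. Its lowest p belonged to Dhcr7, the last enzyme of cholesterol synthesis, at 61.9 to 74.0 CPM in SD and 52.1 to 62.7 CPM in MET (-0.21 ± 0.05, adjusted p = 0.0773). The list had 0 calls, and 1 gene was downregulated without MET+LEU replicate 6 in the model. In the mean level of this list 5 of 6 MET libraries lay below all SD libraries.

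Cytosolic ribosomal protein genes were mostly positive. All 83 were tested, 66 positive, with Rpl17 and Rpl23a upregulated, 25 positive and 1 negative at an unadjusted p under 0.05 (31.3%), and a median of 0.09. The negative member at that unadjusted threshold was Rpsa (-0.12, adjusted p = 0.142). The SD libraries spread widely in this list, from -0.18 in replicate 5 to 0.18 in replicate 3, whereas the MET libraries lay between 0.05 and 0.15, inside the range of SD. Without SD replicate 5 the median was 0.06 and without SD replicate 3 it was 0.13. Of 17 small nucleolar RNA host genes Snhg8 was upregulated, 4 including Snhg6 (0.25, adjusted p = 0.325) were positive at the unadjusted threshold, and the median was 0.03. Proteasome genes gave 28 of 34 positive, 5 at the unadjusted threshold, and a median of 0.04, with Psmc3 and Psmd12, subunits of the regulatory particle, at 0.10 each (adjusted p = 0.331 and 0.352).

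**Figure D3:**
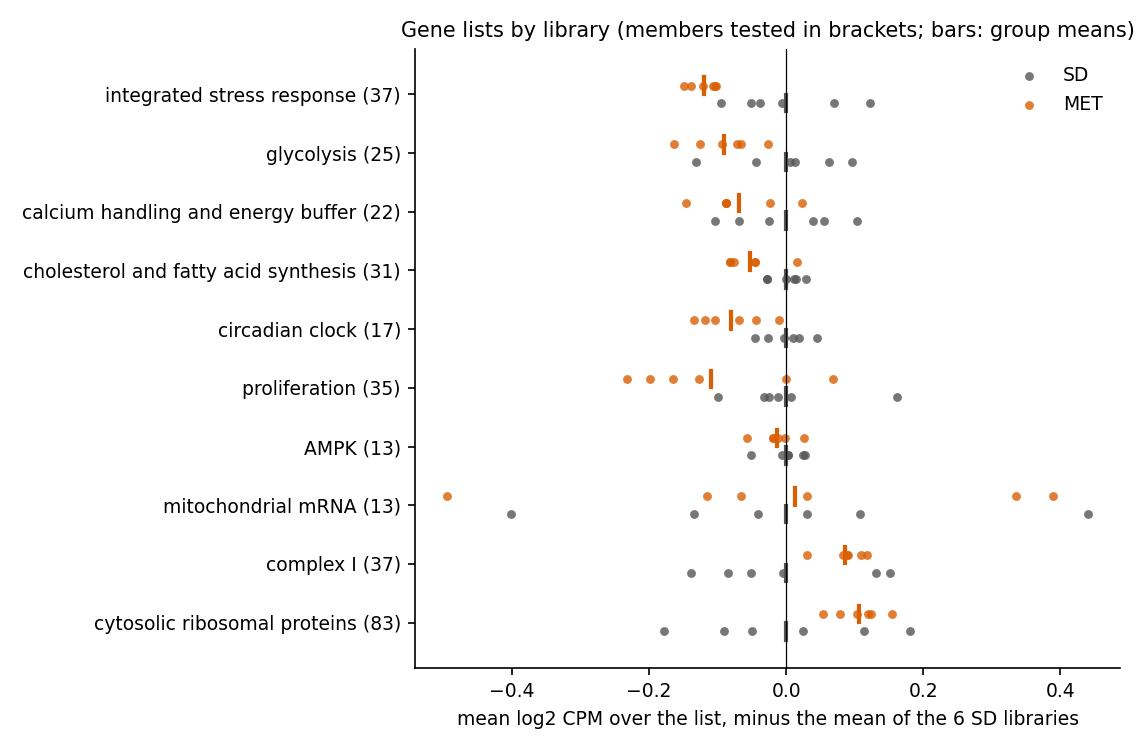
Mean log2 CPM of the tested members of 10 lists in each SD and MET library, relative to the mean of the 6 SD libraries, with vertical bars for the group means. MET libraries lie below all SD libraries for the integrated stress response, whereas for ribosomal proteins and complex I they lie inside the range of SD.

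Contractile genes ran in both directions. Of 39 tested, 25 were negative, 8 negative and 2 positive at an unadjusted p under 0.05, 0 passed the threshold, and the median was -0.04. In the model without MET+LEU replicate 6, 2 were upregulated and 0 downregulated. The giant sarcomere protein Ttn stood at -0.16 (adjusted p = 0.247), the M-band protein Myom1 at -0.16 (adjusted p = 0.142) and the alpha-actinin Actn2 at -0.17 (adjusted p = 0.190), while the fast troponins Tnnc2 and Tnnt3 stood at 0.39 and 0.27 (adjusted p = 0.298 and 0.391). Of 22 genes of calcium handling and the energy buffer, 6 were negative at that threshold and 0 positive, with a median of -0.09. Of these 22, 0 passed the threshold and 3 were downregulated without MET+LEU replicate 6 in the model. The 6 included Cacna1s, the voltage sensor of the T-tubule, at 321 to 367 CPM in SD and 293 to 330.3 CPM in MET (-0.17 ± 0.04, adjusted p = 0.0556), and Ryr1, the calcium release channel (-0.13, adjusted p = 0.107). Myogenic factors and fusion genes had a median of -0.003 (3 positive and 1 negative of 20), with the differentiation inhibitors Hes1 at 0.13 and Id2 at 0.15 (adjusted p = 0.320 and 0.367). Atrophy ligases and FoxO genes had a median of 0.03 and 0 of 15 at the unadjusted threshold, with Fbxo30 at 0.08 and Foxo3 at -0.07 (adjusted p = 0.519 and 0.539).

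Cell cycle and clock genes were also mostly negative. Of 35 proliferation genes 32 were negative, 10 of them at an unadjusted p under 0.05 (28.6%), 0 passed the threshold, and the median was -0.09. Ccnb1, the mitotic cyclin, was lowest in p, at 8.86 to 10.99 CPM in SD and 5.59 to 9.71 CPM in MET (-0.36 ± 0.10, adjusted p = 0.121), followed by Rrm2, a subunit of ribonucleotide reductase (-0.12, adjusted p = 0.242). Of 17 circadian clock genes 15 were negative, Bhlhe40 passed the threshold, 4 were negative and 0 positive at the unadjusted threshold, and the median was -0.09. The median was -0.05 without MET replicate 2 and without SD replicate 1, and -0.06 without MET replicate 3. Nr1d1, a repressor of the clock, had a log2 fold change of -0.11 and Per2, of its negative limb, one of -0.11 (adjusted p = 0.458 and 0.497). In both lists the mean level of 4 of 6 MET libraries lay below all SD libraries. The E-box CACGTG that clock factors bind was in a window of 5 of the 15 clock genes that had one, and in that of 1231 of 10591 genes tested that had one.

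Inflammatory and stress lists held members on both sides of 0. Of 24 secreted inflammatory factors tested, 5 were positive and 2 negative at an unadjusted p under 0.05 (29.2%), and the median was 0.08. The chemokine Cxcl12 had a value of 0.15 (adjusted p = 0.315). The mean level of 5 of 6 MET libraries in this list lay above all SD libraries. The NF-kB list had a median of -0.0002 (1 positive and 2 negative of 23), with Nfkbiz at -0.16 and Ikbkb at -0.09 (adjusted p = 0.372 and 0.441). The p53 targets had a median of 0.02 (3 positive of 25), with Pmaip1 at 0.17 and Gadd45a at 0.14 (adjusted p = 0.324 and 0.376). The interferon list had a median of -0.13 (1 positive and 1 negative of 18), which was -0.07 without MET replicate 1 and -0.03 over members with at least 10 counts in every library, with Gbp2 at 0.87 and Ifit1 at -0.34 (adjusted p = 0.334 and 0.449), both at a few CPM or less. The NRF2 list had a median of 0.04 (2 positive and 1 negative of 21), with the superoxide dismutase Sod1 at 0.13 (adjusted p = 0.420). Hmox1, the heme oxygenase of the NRF2 list, did not overlap, at 29.8 to 34.0 CPM in SD and 26.4 to 28.96 CPM in MET (-0.20 ± 0.05, adjusted p = 0.117). Of 27 immediate early genes, Egr1 was upregulated, 4 were positive and 3 negative at the unadjusted threshold, and the median was 0.05, with Spry2, an inhibitor of receptor kinase signaling, at 0.10 (adjusted p = 0.377).

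Protein quality control, translation and nutrient signaling lists held 0 calls. ER chaperones had a median of 0.01 (3 positive and 2 negative of 20 at an unadjusted p under 0.05), with the disulfide isomerase Pdia3 at 0.11 and the co-chaperone Dnajb11 at 0.14 (adjusted p = 0.243 and 0.281). Aminoacyl-tRNA synthetases, several of which are also known ATF4 targets, had a median of -0.01 (1 positive and 3 negative of 20), and their members of lowest p ran in opposite directions, Aars at -0.10 and Tars at 0.11 (adjusted p = 0.325 and 0.342). Autophagy and lysosome genes had a median of 0.001 (5 positive and 1 negative of 33). Ulk1, the kinase that starts autophagy, was at 121 to 151 CPM in SD and 113 to 128 CPM in MET (-0.15, adjusted p = 0.171), and Wipi1, an early autophagosome protein, had a value of 0.09 (adjusted p = 0.325). Fatty acid oxidation and PGC-1 genes had a median of -0.03 (2 positive and 3 negative of 29), with the nuclear receptor Ppard at -0.12 and Acacb, which makes the malonyl-CoA that restrains fatty acid import into mitochondria, at -0.18 (adjusted p = 0.269 and 0.351). The mTORC1 and insulin signaling genes had a median of -0.04 (1 positive and 6 negative of 43 at the unadjusted threshold, 28 negative in all), with Nprl3, of the complex that restrains mTORC1 when amino acids are low, at -0.18 and Rptor, the scaffold of mTORC1, at -0.10 (adjusted p = 0.200 and 0.225).

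The remaining lists concerned chromatin, matrix and long noncoding RNAs. Of 12 replication-independent histone genes, H2aj was upregulated, 4 including H3f3b (0.12, adjusted p = 0.212) were positive at the unadjusted threshold, and the median was -0.004. Of 55 clustered histone genes 4 were positive and 2 negative, with a median of -0.02, and the lowest p was that of the linker histone H1f4 (0.32, adjusted p = 0.0756), followed by H1f3 (0.24, adjusted p = 0.224). The matrix list had a median of -0.0001, with 2 positive and 2 negative of 34. Tnc, the matrix glycoprotein tenascin, did not overlap between the groups, at 957 to 1031 CPM in SD and 863 to 929.8 CPM in MET (-0.13 ± 0.03, adjusted p = 0.0773), while the collagen Col3a1 had a value of 0.08 (adjusted p = 0.400). The 8 tested members of the list of long noncoding and imprinted genes had a median of -0.06 and 0 at the unadjusted threshold, with the imprinted genes Peg3 at -0.05 and H19 at -0.07 (adjusted p = 0.648 and 0.688).

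Metformin was also added in the presence of leucine, in 12 other libraries, which allowed the 25 genes to be read in a comparison that shares no library with MET vs. SD. In MET+LEU vs. LEU, 20 of the 25 had the same direction as in MET vs. SD, as did 9712 of all 15907 genes. Past the threshold were 8 in the same direction and 1 in the other, where 999 genes (6.28%) passed in all. The 8 were Pdcd4 (log2 fold change 0.19), Pfdn5 (0.33), Rpl17 (0.20) and Rpl23a (0.17), and Adgrg1 (-0.22), Gm49759 (-0.26), Dot1l (-0.15) and Slc7a5 (-0.15). Chac1 had a value of -0.27 ± 0.09 in MET+LEU vs. LEU (adjusted p = 0.0744), and Gys1, Musk, Bhlhe40 and H2aj lay between -0.004 and 0.006. Without MET+LEU replicate 6, 19 had the same direction and 5 of them passed, against 2.85% of all genes. Of the 5 genes with the opposite direction Egr1 was the 1 past the threshold, at 185 to 212 CPM in LEU and 165 to 179 CPM in MET+LEU (-0.21 ± 0.04, adjusted p = 0.00133), and its change by metformin differed with and without leucine (interaction -0.41 ± 0.06, adjusted p = 9.49e-05, edgeR). It was the 1 gene of the 25 to pass this test, which 8 genes (0.0503%) passed in all. Between MET and LEU 0 of the 25 passed the edgeR threshold, where 12 genes (0.0754%) passed in all. At an unadjusted p under 0.05 there were 13, beside 8.68% of all genes. They were 12 of the 13 downregulated genes but only 1 of the 12 upregulated genes. DESeq2 called 4 and limma-voom 6 of the 25. Both MET vs. LEU and the interaction share libraries with MET vs. SD, by which the 25 were chosen. Their counts for these genes are therefore not independent of that choice.

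**Figure D4:**
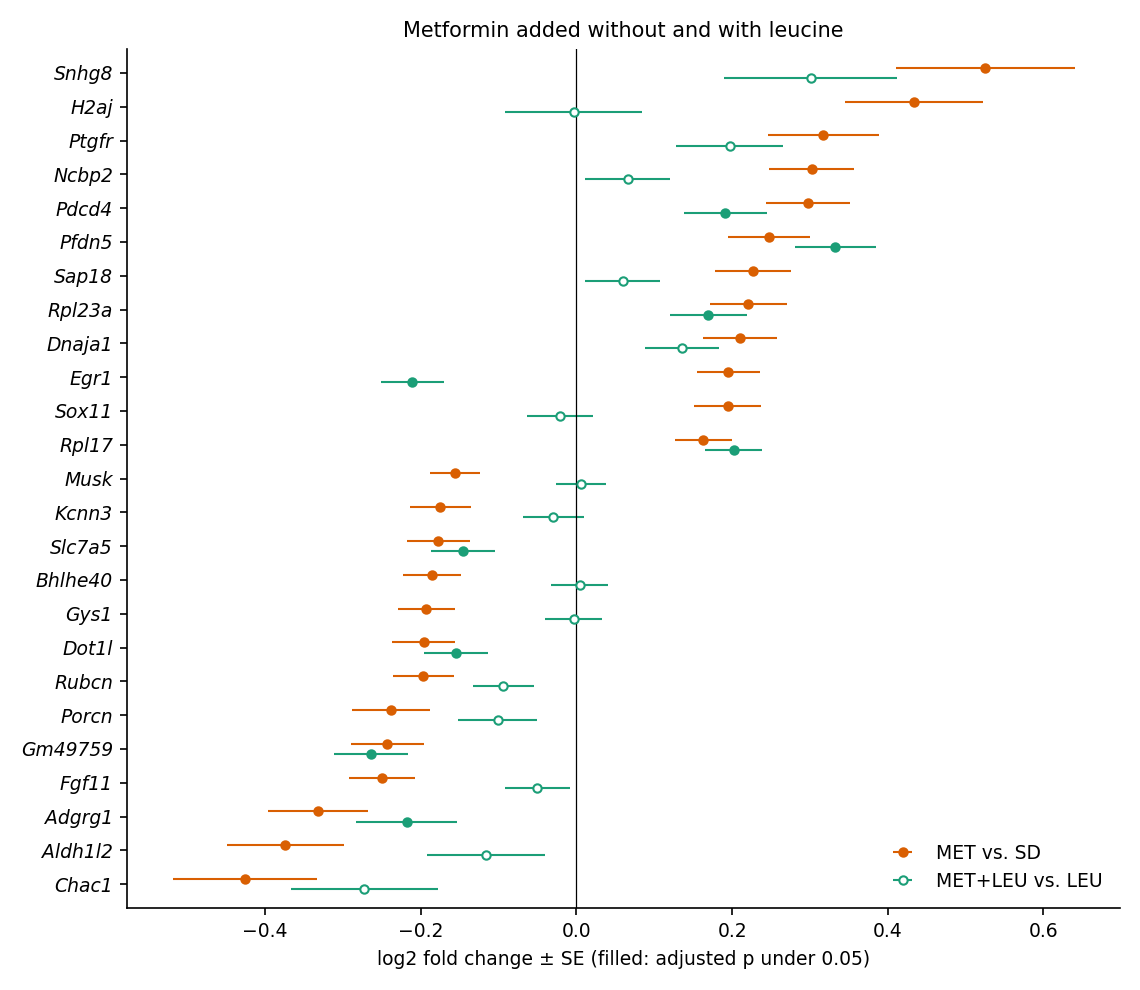
Log2 fold change ± SE of the 25 genes when metformin was added without leucine (MET vs. SD) and with it (MET+LEU vs. LEU), with filled points for an adjusted p under 0.05. Filled points on the same side of 0 mark the 8 genes past the threshold in both, and Egr1 lies on opposite sides.

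The levels of these genes in the other groups are given side by side, since SD vs. 2% HS and the comparisons with SD share the SD libraries. Chac1 had a mean of 32.9 CPM in 2% HS, 20.4 CPM in SD, 15.2 CPM in MET, 17.8 CPM in LEU and 14.6 CPM in MET+LEU. Aldh1l2 followed with 59.8, 36.3, 27.97, 31.4 and 29.1 CPM in the same order, and Slc7a5 with 195, 138, 122, 123 and 111 CPM. These 3 genes were highest with serum, and SD vs. 2% HS gave log2 fold changes of -0.69, -0.72 and -0.50 (adjusted p = 2.43e-08, 1.43e-10 and 2.3e-14, edgeR), where 27.8% of all genes passed. Ptgfr was lowest with serum, with 13.6 CPM in 2% HS, 26.04 CPM in SD, 32.4 CPM in MET, 33.7 CPM in LEU and 38.6 CPM in MET+LEU. For Rpl17 SD vs. 2% HS gave -0.02 (adjusted p = 0.767) and for Rpl23a 0.07 (adjusted p = 0.295).

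The number of genes past the threshold depended on which libraries and which test estimated the spread. Without MET+LEU replicate 6 in the model, 160 genes passed (0.996% of 16062), 111 upregulated (0.691%) and 49 downregulated (0.305%), and all 25 genes were among them. The fold changes of these were close to those with it, with Chac1 at -0.42 and Snhg8 at 0.53. The 10 genes with the lowest p among those added were Sem1, Rpl14, Serbp1, Eif2s2, Cwc15, Ybx1, Hnrnpab, Mphosph8, Hnrnpa3 and Ndufa5, all higher in MET. Sem1, a small proteasome subunit, was at 18.7 to 27.7 CPM in SD and 28.8 to 33.7 CPM in MET (log2 fold change 0.44; adjusted p = 0.408 with that library and 0.000438 without it). Ybx1, an RNA-binding protein, was at 258 to 303 CPM in SD and 303 to 353 CPM in MET (0.22), and Eif2s2, the beta subunit of eIF2, at 131 to 149 CPM and 152 to 171 CPM (0.20). Neither overlapped. In this model 12 ribosomal protein genes were upregulated and 5 integrated stress response genes downregulated, and 30 of the 160 passed in the same direction in MET+LEU vs. LEU and 1 in the other, where 2.85% of all genes passed. DESeq2's Wald test gave 120 genes (0.754%) on all 30 libraries, 23 of the 25 among them.

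Single libraries decided many calls. Fgf11, Ncbp2 and Pdcd4 passed in all 12 edgeR fits that left out 1 SD or MET library, and Adgrg1 in 11, but the other 21 genes lost the threshold in 2 to 9 of these fits. The total ranged from 4 genes without MET replicate 4 to 73 without SD replicate 6, and it was 5 without SD replicate 2, 8 without MET replicate 5, 9 without MET replicate 3, 12 without MET replicate 1, 45 without SD replicate 3 and 49 without MET replicate 2. Without MET+LEU replicate 6 in the model, leaving out 1 library gave 62 (without SD replicate 2) to 253 genes.

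**Figure D5:**
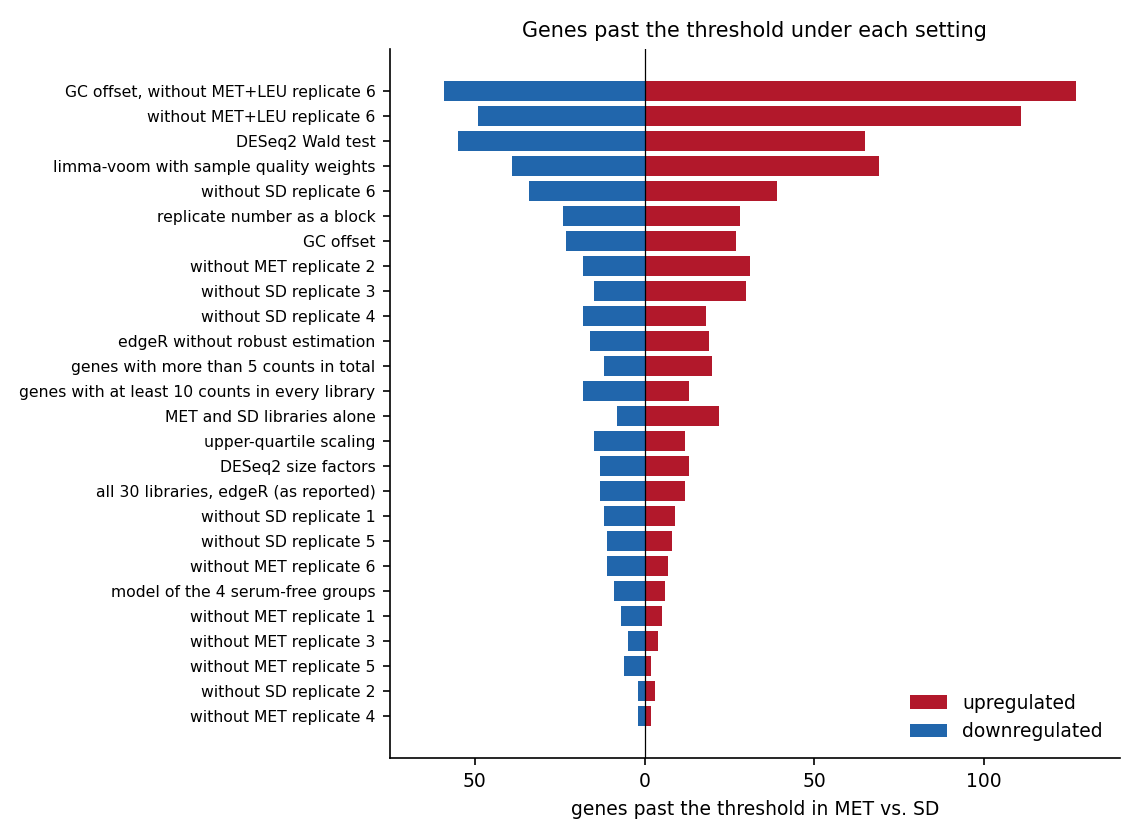
Genes past the threshold in MET vs. SD under each setting, with downregulated genes drawn to the left of 0 and upregulated genes to the right. The 12 upregulated and 13 downregulated genes of the model of all 30 libraries compare with 4 genes in all without MET replicate 4 and 160 without MET+LEU replicate 6.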

How the data were processed

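RNA of C2C12 cells was measured by ribosomal RNA-depleted, stranded total RNA sequencing with 150 bp paired reads. Per the labels and the submitters' processing notes, the authors used cutadapt 1.16, STAR 2.7.6a, featureCounts 1.6.3 and DESeq2 1.30.1 with GRCm38; the annotation release and strand setting are not given in the sources used here. The deposited values are raw counts per gene for 55487 Ensembl identifiers, of which 55227 matched GENCODE M21 (also GRCm38), the source of coordinates, lengths and GC content. Symbols were brought to current names through RefSeq synonyms.

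The filterByExpr function of edgeR 4.0.16, run with its minimum count of 10 and total of 15, kept 15907 genes. Libraries were scaled by TMM and 1 mean for each of the 5 groups was fitted to all 30 libraries (estimateDisp, glmQLFit with the robust option, glmQLFTest; R 4.3.3), and two-sided p-values were adjusted by Benjamini-Hochberg across these genes, with 0.05 as the threshold. CPM are TMM-scaled. List levels are means of log2 CPM with a prior count of 2. Shares of counts and principal components of 500 genes were compared by exact permutation tests. DESeq2 1.42.0 and limma 3.58.1 gave alternative tests. Fits were tested on simulated data. Libraries held 12784960 to 19604103 counts; intervals are for fold changes and cover the spread between libraries. Library pairs of a group differed by more than sampling noise. This does not show that the libraries came from separate cultures, and each was counted as 1 sample.

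The genes and lists were chosen with earlier results of these data known. Named are all genes past the threshold, for each list its members past the threshold and the 2 with the lowest p, genes of AMPK and of metformin transport, and the 10 genes with the lowest p added without MET+LEU replicate 6; other list members were named after their values were seen. Some genes that this rule names are not reported here. Of 962 list entries, 3 matched no identifier. Alternatives were other scaling, filters, tests, thresholds, models, a GC offset, a replicate block and leaving out libraries; a model of the 4 serum-free groups, and the fits that combine the omission of MET+LEU replicate 6 with a GC offset or with leaving out another library, were added after seeing the data. Promoter windows came from RefSeq (GRCm38.p6).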

Additional observations from a re-analysis of the deposited data

Results flagged for a closer look

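In each group of 6 libraries, a library was marked when its gap to the nearest other library exceeded Dixon's 95% critical value. Of 86 such groups (25 genes past the threshold, 10 genes of the model without MET+LEU replicate 6, 5 shares and 3 principal components), 4 held a marked library, and chance marks about 5% of groups. Rubcn reached 110.7 CPM in SD replicate 2, where the others lay between 98.6 and 103 CPM. Dot1l was at 125 CPM in MET replicate 6, where the others lay between 104 and 111 CPM. Kcnn3 was at 198 CPM in SD replicate 5, where the others lay between 169.8 and 180.4 CPM. On the first principal component of the 12 libraries, which held 17.5% of the variance and drew 46.3% of its loading from Gm24305, SD replicate 6 had a score of 0.136 and the other SD libraries scores from -4.86 to -3.00. The differences between MET and SD on the first 3 components did not pass the threshold (exact permutation test, adjusted p = 0.276, 0.816 and 0.110).

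Egr1 is listed because its change differed between the additions of metformin with and without leucine, by -0.41 on the log2 scale (interaction, adjusted p = 9.49e-05, edgeR). In MET vs. SD 5 of 6 MET libraries lay above all SD libraries, and in MET+LEU vs. LEU the groups of 6 did not overlap.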

How the results depend on the processing

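The limits are the small size of the changes, the spread between libraries and the single comparison. How much of the precision depends on that spread and how much on depth was not tested, and genes of a few CPM carry wide intervals. The edgeR fit of all 30 libraries gave 25 genes in MET vs. SD, 12 up and 13 down, in 6 of the 32 lists, with 9 of them past the threshold in MET+LEU vs. LEU, 1 in the interaction and 0 in MET vs. LEU. With DESeq2's Wald test the numbers were 120 (65 up, 55 down), 14 lists, 5 in the interaction and 4 in MET vs. LEU. With limma-voom and sample quality weights they were 108 (69 and 39), 15 lists and 6 in MET vs. LEU. With a GC offset they were 50 (27 and 23), 10 lists, 4 in MET+LEU vs. LEU and 3 in MET vs. LEU. Without MET+LEU replicate 6 in the model they were 160 (111 and 49), 16 lists and 3 in MET vs. LEU, and with a GC offset as well 186 (127 and 59), 19 lists and 5. The model of the 4 serum-free groups gave 15 genes (6 up), all among the 25. The MET and SD libraries alone gave 30 (22 up, 8 down), 17 of them shared with the 25; without the robust option there were 35 (19 up) in 10 lists, and with genes of more than 5 counts in total 32 (20 up). Upper-quartile scaling gave 27 genes and 1 in MET vs. LEU, and DESeq2's size factors 26. At an adjusted p under 0.01 there were 3 genes (2 up, 1 down) in 0 lists, and 4 of the 25 passed it in MET+LEU vs. LEU. With 1 library left out, the count ranged from 4 to 73 (2 to 39 up, 2 to 34 down), 4 to 25 of the 25 still passed, and 0 to 13 lists held a call; in MET+LEU vs. LEU 6 to 12 of the 25 passed, and in MET vs. LEU 0 to 1. The difference in the share of mitochondrial rRNA ranged from 0.167 to 0.260 percentage points and passed without MET replicate 2. PC2 separated MET and SD by 6.80 once small RNA genes were removed (adjusted p = 0.0455, exact permutation test). The cause of these shifts was not tested. None of the 25 genes changed direction under any of these settings, which their choice by the same SD and MET libraries made likely. Of the counts and other values above, 236 alternatives stayed within 1.5 times or on their side of the threshold, 85 moved and 2 came past it. Over single genes and list medians, 3029 alternative values kept their direction and side of the threshold or, for medians, stayed within the spread between libraries, 145 lost the threshold, 131 gained it, and 32 changed sign without passing it or moved beyond the spread.

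The replicate numbers are shared between the groups, but the labels do not say that a number marks a shared culture or day. Deviations of same-numbered SD and MET libraries correlated with a mean r of 0.020 (-0.035 to 0.073), those of different numbers with -0.004. No SD and MET pair reached an r of 0.1, which does not exclude pairing. The numbers were not treated as pairs because the labels name none. However, 6 of 12 libraries correlated best with their own number among the 6 of the other group, a hint from the data. With the replicate block the count was 52 (28 up, 24 down) in 12 lists, with 1 of the 25 past the threshold in MET vs. LEU, and all 25 genes passed.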
